A study of Mus musculus with 10 samples.

Results

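The tissue effect on regulatory T cells (Tregs) of control mice was measured by setting 3 libraries from tumors against 3 libraries from lymph node (LN). These 6 of the 10 libraries of the series were taken by their labels, without use of any measured value. Each library is bulk RNA of CD4+ T cells of the regulatory lineage, sorted by red fluorescence (RFP) from mice that had been injected with a lymphangiogenic mouse melanoma line, that is, one that draws lymphatic vessels into the tumor. The control mice were 10 weeks old, carried floxed MHC class II alleles (MHCIIfl/fl) and had no Cre. The other 4 libraries came from MHCIIdeltaProx-1 mice of the same age, here called MHCII-deleted mice, with 2 libraries per tissue. In these mice a Cre under control of Prox1, a gene that marks lymphatic endothelium, removes MHC class II. All mice compared carried the floxed allele and the melanoma. The labels do not say which gene drives RFP, which node was taken, or whether a library holds 1 or several mice. Nothing in them says that replicates are separate mice, so the p-values measure the spread between these samples, which may be technical in part. The labels describe excision and digestion for tumors, and how LN tissue was dissociated is not given in the sources used here. Tissue and dissociation therefore cannot be told apart in the rises and falls below.

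Tregs are CD4+ T cells that hold back other immune cells, and the transcription factor Foxp3 defines them. They do so through surface receptors such as CTLA-4, through secreted factors such as interleukin 10, and by taking up interleukin 2 through its high-affinity receptor. Tregs of lymph nodes mostly recirculate and keep genes of naive or central T cells, whereas Tregs in tissues and tumors are known for an activated effector state with receptors for tissue homing.

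The 6 libraries held 28539329 to 35736175 counts each. Between 12825 and 13527 genes were detected per LN library and between 13680 and 14166 per tumor library. A floor of 3 counts lies at 0.0809 to 0.107 CPM (counts rescaled so that all TMM-adjusted libraries have the same total), and such floors cover counting error only, since reads without molecular identifiers are not independent molecules. In a principal component analysis of the 6 libraries the first component held 73.9% of the variance and separated the tissues. The second held 9.14% and set tumor library 3 at 74.0 apart from tumor libraries 1 and 2 at -54.9 and -23.1. Summed Y-linked genes were high in the second library of both tissues (232.4 CPM in LN and 182.9 CPM in tumor) and lay between 2.57 and 7.77 CPM in the other 4, so the 3 libraries of a tissue did not all come from the same mice.

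The labelled cell type was checked against its markers. Foxp3 (chrX:7573644-7595245) stood at 669, 747 and 644 CPM in LN and at 646, 817 and 750.5 CPM in tumor. The groups overlapped, and the difference did not pass the threshold (log2 fold change 0.10 ± 0.10 SE, edgeR adjusted p = 0.456). The Foxp3 exons share 590 bases with Ccdc22 and 266 with Ppp1r3f on the other strand, which were at 47.7 and 16.2 CPM in LN and at 58.1 and 12.8 CPM in tumor. Ikzf2, which encodes the Treg factor Helios, was at 374, 300.3 and 291 CPM in LN and at 397, 394 and 397 CPM in tumor (adjusted p = 0.0857). Cd4 was at 1126, 1196 and 1165 CPM in LN and at 1384, 1416 and 1232 CPM in tumor (adjusted p = 0.0511). Cd4 passed without tumor library 3 (adjusted p = 0.0206) and Ikzf2 without LN library 1 (adjusted p = 0.0342), and both passed with DESeq2 or pan-T scaling. Cd8a, the marker of cytotoxic T cells, was at 0, 0.273 and 1.54 CPM in LN and at 2.75, 4.99 and 14.6 CPM in tumor (adjusted p = 0.0421, and 0.0586 to 0.159 without LN library 1 or tumor library 2 or 3). Cd8b1, its partner chain, was at 20.4, 30.7 and 27.6 CPM in LN and at 24.5, 26.1 and 27.5 CPM in tumor. Foxp3, Ikzf2 and Cd4 were therefore present in all 6 libraries, Cd8a was at or near 0 in LN, and Cd8b1 was detected in both tissues.

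RNA that Tregs are not known to make was present in the tumor libraries. The summed level of 15 melanoma markers was 16.6, 20.6 and 26.8 CPM in LN and 4928, 5862 and 9611 CPM in tumor. The summed level of 17 stromal and endothelial markers was 274 to 311 CPM in LN and 980, 5291 and 3196 CPM in tumor. Most of the LN sum was Pecam1 (202 ± 19.1 CPM), an adhesion molecule that T cells also carry. Genes were therefore kept in 3 classes by their mean level in the LN libraries: 8226 tested genes at 10 CPM or more, 2420 at 1 to under 10 CPM, and 3274 under 1 CPM. Genes of the first class made up 98.8% of all CPM in LN and 96.6%, 95.5% and 95.2% in the 3 tumor libraries. Genes of the last class made up 0.0734% in LN and 0.992%, 1.71% and 1.65% in tumor. The limit at 10 CPM fell between close neighbours: Ccp110 at 9.98 and Cited2 at 9.99 CPM were just outside, and Slc39a8 and Coq7, both at 10.0 CPM, just inside.

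Of 21556 genes in the table, 13920 passed the filter on low counts and were tested, and 7636 did not, of which 5591 had a count of 0 in all 6 libraries. At an adjusted p under 0.05, 3172 genes (22.8%) rose in tumor and 2237 (16.1%) fell, and the median of all tested genes was 0.08 on the log2 scale. Among genes at 10 CPM or more in LN, 1342 (16.3%) rose and 2032 (24.7%) fell. The sizes were more balanced: 467 rose and 472 fell by 2-fold or more. At 1 to under 10 CPM, 521 genes (21.5%) rose and 176 (7.27%) fell. Under 1 CPM the class itself fixes most of the direction, and 1309 genes (40.0%) rose and 29 (0.886%) fell. With libraries scaled to pan-T cell genes in place of all genes, the median of all genes moved to 0.25 and the calls at 10 CPM or more in LN became 1848 higher and 1108 lower. The share of all calls that are higher was 58.6% with scaling to all genes and 75.4% with that to pan-T cell genes. Within the genes at 10 CPM or more in LN, the median log2 fold change ran from -0.20 in the fifth with the lowest transcript GC content to 0.07 in the fifth with the highest, and the part of GC content in single results was not tested.

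**Figure D1:**
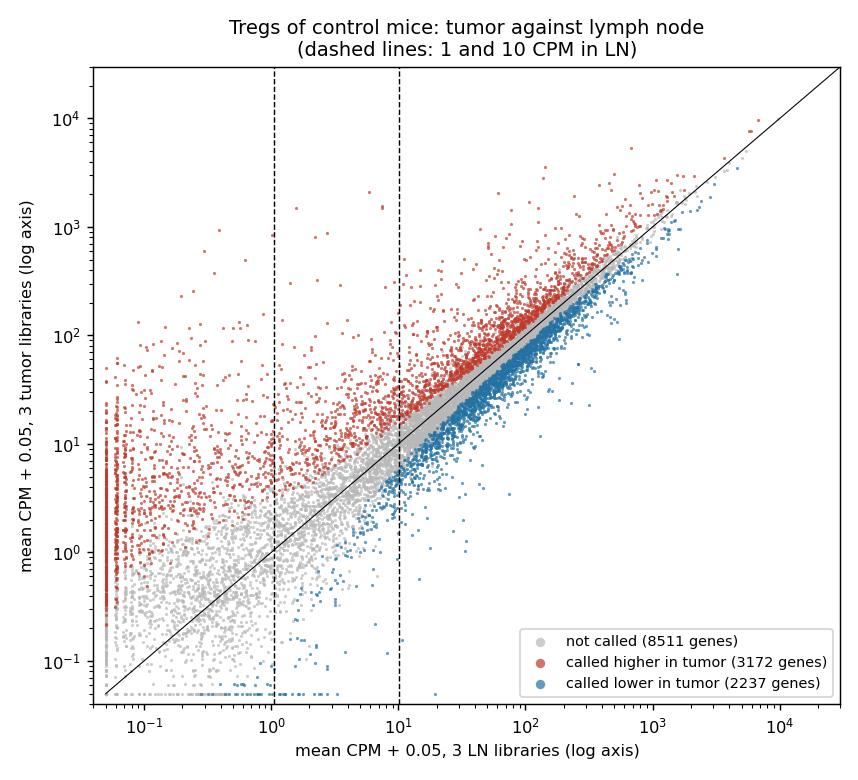
Mean level of each tested gene in the 3 LN libraries (x axis) and the 3 tumor libraries (y axis) of control mice, in CPM + 0.05 on log axes, with genes that passed the test coloured by direction and lines at 1 and 10 CPM in LN. The 1309 genes that rose from under 1 CPM form the cloud at the upper left, apart from the 1342 that rose and the 2032 that fell from 10 CPM or more.

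The 12 largest rises from an LN level of at least 10 CPM included regulators of transcription and of signaling, chemokines and enzymes. Fosl2 (chr5:32135801-32157842), an AP-1 subunit, was at 7.47, 15.7 and 9.76 CPM in LN and at 384, 558 and 560.2 CPM in tumor, a rise of 45.6-fold (log2 5.51 ± 0.33, adjusted p = 2.37e-06). Rgs2 (chr1:143999338-144004161), which damps signaling from G-protein coupled receptors, was at 68.9, 61.7 and 50 CPM in LN and at 1912, 2163 and 2063 CPM in tumor (34.0-fold, adjusted p = 9.05e-08). Tnfaip3 (chr10:19000910-19015657), which encodes the NF-kB inhibitor A20, was at 158, 134 and 137 CPM in LN and at 3496, 4171 and 2981 CPM in tumor (24.8-fold, adjusted p = 4.73e-08). In all 3 genes every tumor library was more than 10 times as high as every LN library. The others of the 12 largest rises were Sik1, a kinase induced by cyclic AMP (31.7-fold), the phosphatase gene Dusp5 (27.7-fold), the chemokine gene Ccl5 (27.1-fold), the surface protease gene Adam8 (22.3-fold), the NF-kB cofactor gene Nfkbiz (21.8-fold), Odc1, which starts polyamine synthesis (21.8-fold), the repressor gene Bhlhe40 (20.5-fold), Tent5a (19.7-fold) and the chemokine gene Cxcl10 (19.2-fold). All 12 were chosen with no overlap between the groups, which held for 22.2% of the genes of this class in the direction of tumor and for 34.2% in the direction of LN. Tumor library 1 stood above the other 2 for Odc1 (862 against 284 and 298 CPM) and for Dusp5 (452 against 204 and 239.7 CPM). Exons of Cxcl10 share 133 bases with Art3 on the other strand.

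The 12 largest falls from an LN level of at least 10 CPM included genes known from B cells, NK cells and resting T cells. Slc16a5 (chr11:115462474-115474398), a monocarboxylate transporter gene, had 636, 853 and 463 counts in LN and 0 in every tumor library, so that it was at least 585.5-fold lower (floor of 3 counts over the group). Sostdc1 (chr12:36314139-36318452), which encodes a secreted inhibitor of BMP and Wnt signals, was at 10.7, 10 and 11.3 CPM in LN and had 8, 0 and 2 counts in tumor (95.6-fold lower, adjusted p = 0.000323). Id3 (chr4:136143497-136145755), an inhibitor of E-protein transcription factors, was at 300.0, 322 and 333 CPM in LN and at 21.4, 22.7 and 24.1 CPM in tumor (14.0-fold lower, adjusted p = 2.05e-06). The libraries of each tissue lay close together for Id3, and none overlapped. The others of the 12 were the Wnt ligand gene Wnt10a (34.3-fold), the B cell coactivator gene Pou2af1 (27.5-fold), Dapl1 (27.1-fold), the B cell receptor gene Cd22 (21.6-fold), Atp1b1 (17.3-fold), the NK receptor gene Klrb1c (16.5-fold), Gata1 (16.5-fold), St8sia1 (11.9-fold) and Gpr83, a receptor gene of resting Tregs (11.1-fold). Atp1b1 shares 575 exonic bases with Nme7. The summed B and plasma cell markers were at 1519 to 1815 CPM in LN and 637 to 719 CPM in tumor, and 4 of 15 of them fell (Cd22, Cd79b, Ighm and Pax5) while Ebf1 and Sdc1 rose. The 4 falls became 2 without LN library 3 or tumor library 3 (Cd79b did not pass without either, adjusted p = 0.0808 and 0.0633), Pax5 did not pass without LN library 1 or any single tumor library (adjusted p = 0.0577 to 0.105), and Ebf1 did not pass without LN library 2 or 3 or tumor library 2 (adjusted p = 0.0507 to 0.056). The part of B cell RNA in the falls of Cd22 and Pou2af1 was not tested. In bulk samples, fewer cells of a type and less RNA per cell cannot be told apart.

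**Figure D2:**
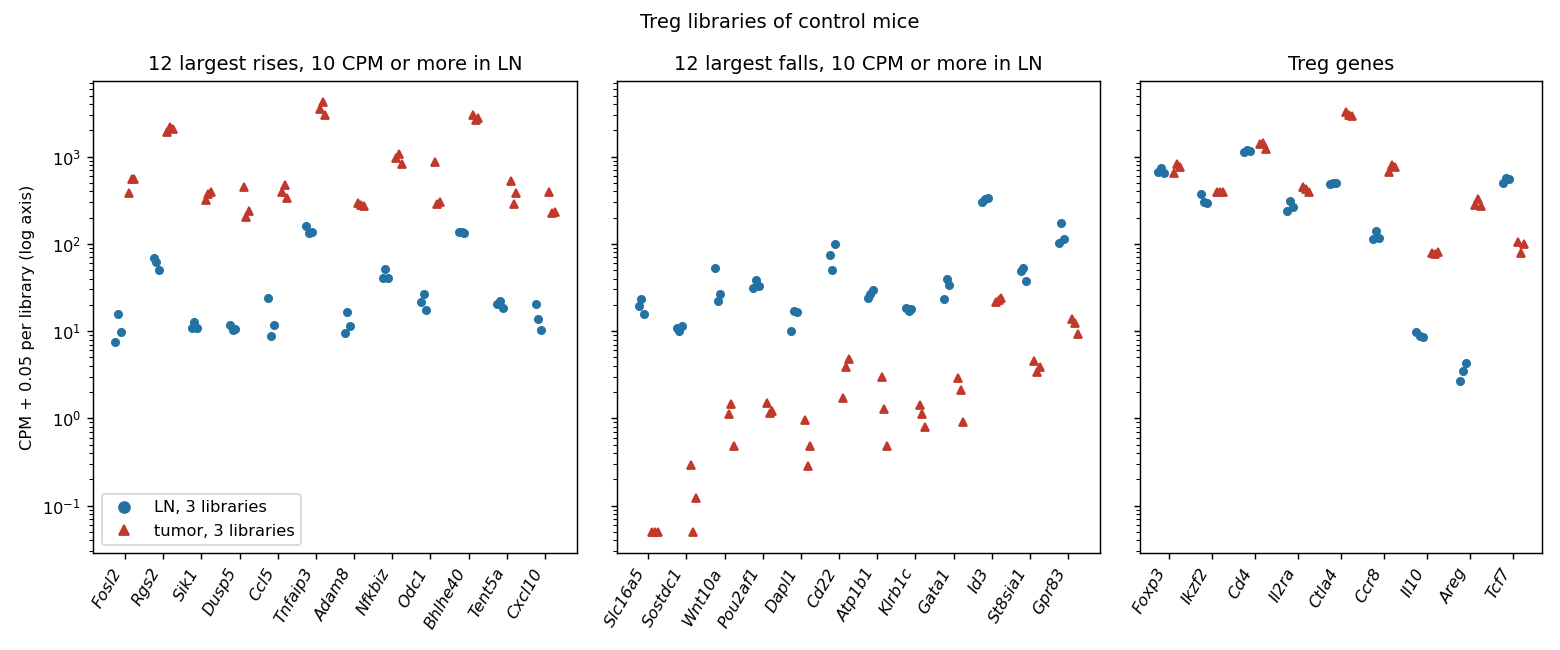
Level of the named genes in each of the 6 libraries, in CPM + 0.05 on a log axis, with circles for LN and triangles for tumor. Foxp3, Ikzf2 and Cd4 overlap or nearly overlap between the tissues, whereas the 3 tumor values of Fosl2, Rgs2 and Tnfaip3 lie far above the LN values and those of Id3 and Gpr83 far below.

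In the results that follow, the genes are grouped by list, and most members of a list that moved against the rest, where 5 or fewer, are named after their values had been seen. The lists were chosen with earlier results of these data known, so their counts are not independent evidence of a direction. The background is the 22.8% of tested genes that rose and the 16.1% that fell, or 16.3% and 24.7% for genes at 10 CPM or more in LN, and medians of lists are log2 fold changes to be read beside 0.08 for all tested genes. Lists share genes. Where a list of programs, not of cell type markers, also holds genes under 10 CPM in LN, the count within the higher class is given with it.

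Of 19 Treg identity genes, all at 10 CPM or more in LN, 8 rose and 5 fell (median 0.36), and the share that fell is near the background of that class. Ctla4 (chr1:60887000-60915832), the inhibitory receptor that removes CD80 and CD86 from antigen-presenting cells, was at 489.8, 494 and 502 CPM in LN and at 3275, 3011 and 2916 CPM in tumor. That was a rise of 6.19-fold (log2 2.63 ± 0.10, adjusted p = 1.83e-07), with no overlap. Il2ra, which encodes the high-affinity subunit of the interleukin 2 receptor, was at 237, 312 and 262 CPM in LN and at 454, 420.5 and 394 CPM in tumor, a rise of 1.57-fold (adjusted p = 0.00536). Lrrc32, whose product GARP holds latent TGF-beta at the Treg surface, rose from 189.8 ± 8.76 to 973 ± 50.7 CPM (SD, n = 3 each). Izumo1r, which encodes folate receptor 4, fell from 821 ± 22.6 to 323 ± 39.9 CPM, and Nrp1 fell from 541 ± 18.4 to 381 ± 13.7 CPM. Within this list Foxp3 did not pass the test, Ctla4, Il2ra and Lrrc32 rose, and Izumo1r, Nrp1, Gpr83, Bach2 and Nt5e fell. Nt5e, which encodes CD73, went from 423 ± 25.7 to 320.5 ± 35.3 CPM. With single libraries left out it passed only without tumor library 2 (adjusted p = 0.0573 to 0.112 without any other). It also did not pass with RLE size factors (adjusted p = 0.0514) or pan-T scaling (0.142).

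Suppressive and effector molecules rose in 18 of 26 tested genes (15 of 22 at 10 CPM or more in LN), and only Cd200 fell among them (from 137 ± 7.8 to 43.6 ± 13.5 CPM). The median log2 fold change was 1.21. Areg (chr5:91139599-91148432), the growth factor amphiregulin that tissue Tregs make for repair, was at 2.61, 3.48 and 4.24 CPM in LN and at 278, 329.8 and 274 CPM in tumor (85.5-fold, adjusted p = 4.73e-08). Il10 (chr1:131019845-131024974) was at 9.68, 8.69 and 8.45 CPM in LN and at 77.9, 75.7 and 81 CPM in tumor (8.74-fold, adjusted p = 4.32e-07). For both genes the 3 tumor libraries agreed closely and lay far above all LN libraries. Fgl2, a secreted fibrinogen-like inhibitor of T cells, rose from 57.7 ± 6.43 to 817 ± 151 CPM, and Nkg7, a protein of cytotoxic granules, from 50.3 ± 13.5 to 672 ± 160.3 CPM. Gzmb, the protease granzyme B, rose from 106 ± 46.5 to 1702 ± 364 CPM and is named after its values had been seen, as are Ebi3 (a subunit of interleukin 35) and Entpd1 (CD39, which breaks down extracellular ATP). Ebi3 rose from 56.2 ± 10.8 to 125 ± 17.9 CPM and Entpd1 from 64.8 ± 4.86 to 148 ± 27.6 CPM. Of 28 genes known from tumor Tregs, 20 rose and 2 fell (Acp5 and Ncoa7), with a median of 1.69; at 10 CPM or more in LN 16 of 23 rose.

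Costimulatory and inhibitory receptors moved both ways within each family, with falls near the background share of their class. Of 15 TNF receptor superfamily members 6 rose (4 of 11 at 10 CPM or more in LN), among them Tnfrsf9 (4-1BB; 455 ± 70.4 to 2534 ± 437 CPM), Tnfrsf18 (GITR; 607 ± 66.6 to 1803 ± 114 CPM) and Tnfrsf4 (OX40; 791 ± 93.6 to 2032 ± 258 CPM). These 3 receptors feed NF-kB and sustain activated Tregs. Cd27, Tnfrsf13b and Tnfrsf26 fell, 3 of 11 at 10 CPM or more in LN and a share near the background of that class. Tnfrsf26 did not pass without LN library 2 or 3 or tumor library 1 or 3 (adjusted p = 0.0542 to 0.0637). Of 14 CD28 family and co-inhibitory receptors, all at 10 CPM or more in LN, 7 rose and 4 fell, the latter a share near the background of that class. Pdcd1 (PD-1) rose from 431 ± 53.1 to 1324 ± 213 CPM and Tigit from 92.2 ± 4.97 to 287 ± 24.8 CPM. Btla, an inhibitory receptor of resting lymphocytes, fell from 183 ± 10.9 to 40.7 ± 7.41 CPM, and Cd96, Cd160 and Cd200 also fell.

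Receptors for homing changed in opposite directions. Of 18 chemokine receptors 12 rose (8 of 13 at 10 CPM or more in LN) and only Cxcr5, the receptor for B cell follicles, fell (231 ± 44.3 to 36.1 ± 6.28 CPM); the median was 1.94. Ccr8 (chr9:120092114-120094906), a receptor of tumor Tregs, was at 115, 142 and 116 CPM in LN and at 673, 805 and 750.1 CPM in tumor (5.99-fold, adjusted p = 1.08e-06). Cxcr6 rose from 73.8 ± 16.9 to 867 ± 169 CPM and Cxcr4 from 21.5 ± 0.86 to 239.7 ± 35.4 CPM. Of 12 recirculation and egress genes, 5 fell and 2 rose, with a median of -0.72. S1pr1, the receptor for exit from nodes, fell from 850.1 ± 74.3 to 529 ± 94 CPM. The 2 that rose were Cd69, which holds S1PR1 off the surface (197 ± 14.9 to 439.8 ± 43.4 CPM), and the node-homing receptor gene Ccr7, at 624, 746 and 656 CPM in LN and at 1337, 808 and 1438 CPM in tumor (adjusted p = 0.0112). Klf2, a factor that drives S1pr1, did not pass: it was at 86.7 CPM in tumor library 1 and at 37.4 and 37.3 CPM in the others, against 22.3 to 34 CPM in LN. It did pass, as a rise, with only the groups compared (adjusted p = 0.04885). Of 20 integrins and adhesion genes 10 rose (9 of 18 at 10 CPM or more in LN), among them Icam1 (189 ± 19.4 to 533 ± 66.5 CPM) and Cd44 (239 ± 29.1 to 521 ± 35.1 CPM). Itgal and Itgb1 were among the genes that fell in that list. The falls were 3 of 18 at 10 CPM or more in LN, a share under the background of that class. Their count dropped to 1 with pan-T scaling and without LN library 1 or tumor library 3. Itgal also did not pass without LN library 2 and Itgb1 without tumor library 1 (adjusted p = 0.0622 and 0.0593).

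The naive and central T cell program fell in 14 of 20 genes and rose in 2, with a median of -1.73. Tcf7 (chr11:52252371-52283014), which encodes the transcription factor TCF-1, was at 500.4, 568 and 549 CPM in LN and at 104, 77.7 and 98.3 CPM in tumor (5.78-fold lower, adjusted p = 6.45e-05). Its relative Lef1 fell from 465 ± 23.7 to 148 ± 5.95 CPM. The interleukin 6 receptor chains Il6ra and Il6st fell from 162 ± 13.7 to 30.7 ± 5.94 CPM and from 494 ± 47.6 to 140.3 ± 14.9 CPM. Against the rest of the list, Ccr7 and Il7r rose, the latter from 88.5 ± 3.32 to 206 ± 12.3 CPM.

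Genes of the response to antigen did not move as a block. Of 14 Nr4a and Egr genes 7 rose and 5 fell (6 and 5 of 13 at 10 CPM or more in LN), or 3 fell with pan-T scaling. Nr4a1, a nuclear receptor induced within hours of T cell receptor signaling, was at 240.3, 243 and 236 CPM in LN and at 1737, 2170.0 and 1916 CPM in tumor (8.10-fold, adjusted p = 9.03e-07). Nr4a2 rose from 7.84 ± 1.19 to 278 ± 23.7 CPM and Nr4a3 from 19.2 ± 4.84 to 176 ± 33 CPM. Egr2, a zinc finger factor of the same signal, was at 179, 194 and 178 CPM in LN and at 27.4, 23.5 and 25.2 CPM in tumor (7.24-fold lower, adjusted p = 0.000102). Egr3, Myc, Tox and Tox2 fell with it. With single libraries left out, Tox2 passed only without tumor library 2 (adjusted p = 0.0676 to 0.108 without any other). Tox2 also did not pass with no low-count filter (adjusted p = 0.0503) or with pan-T scaling (0.0784). The 3 Nr4a genes and Egr2 thus lay on opposite sides with no overlap in any of them.

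AP-1, Batf and ATF factors rose in 12 of 16 genes (8 of 10 at 10 CPM or more in LN), and Bach2, a repressor that keeps T cells quiescent, fell (38.4 ± 6.74 to 9.29 ± 5.69 CPM). The median was 1.93. Junb (chr8:84974484-84978718) was at 599, 812 and 599 CPM in LN and at 4890.0, 5469 and 5490.0 CPM in tumor (7.88-fold, adjusted p = 7.94e-07). Fos, the partner of the Jun proteins, rose from 53.1 ± 13.4 to 562 ± 121 CPM. Of 15 NF-kB subunits and inhibitors 12 rose, with a median of 1.30. Nfkbia (chr12:55489410-55492647), which encodes the inhibitor that NF-kB itself induces, was at 462, 490.0 and 460.1 CPM in LN and at 2138, 2253 and 2217 CPM in tumor (4.68-fold, adjusted p = 3.55e-07). Traf1, an adaptor of TNF receptors, rose from 379 ± 7.27 to 1046 ± 36 CPM, and Nfkbiz from 43.9 ± 6.61 to 959 ± 123 CPM.

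The promoter of Nfkbia is shown because NF-kB itself is known to induce this gene. The window is the 250 bases before the start in RefSeq on GRCm38.p6, chr12:55492648-55492897 on the minus strand, and overlaps 0 annotated exons. Capitals mark matches to an NF-kB pattern (GGGA, 4 bases of any kind, CC), searched on both strands.
Nfkbia: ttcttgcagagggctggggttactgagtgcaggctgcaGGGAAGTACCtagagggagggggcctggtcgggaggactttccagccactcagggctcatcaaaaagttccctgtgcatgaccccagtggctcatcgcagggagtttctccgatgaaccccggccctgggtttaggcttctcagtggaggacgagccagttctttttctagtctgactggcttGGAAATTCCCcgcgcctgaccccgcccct
The matches start 212 and 29 bases before the gene. These letters were found in 22.5% of the 13864 windows of 10821 tested genes, so a match is common. At 10 CPM or more in LN they were in 22.2% of windows of genes that rose and 23.4% of windows of genes that fell. The AP-1 letters TGANTCA were in 5.34% of windows of genes that rose and 6.65% of those that rose by 2-fold or more, against 3.63% for genes that fell and 3.92% for all genes of that class. For the interferon-response pattern (GAAA, 2 bases of any kind, GAAA) the shares were 2.82% and 2.82%, and for the hypoxia core ACGTG 24.6% and 20.3%, for genes that rose and fell. The hypoxia core was in 23.02% of windows of all genes at 10 CPM or more in LN. For genes of that class that rose by 2-fold or more its share was 21.83%, under that of the class. For those that fell by 2-fold or more it was 17.96%. These are descriptions of letters in the windows with no test.

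Feedback inhibitors of receptor signaling rose for the most part. Of 15 MAP kinase phosphatases and RGS genes 9 rose and 5 fell (Dusp6, Rgs3, Rgs10, Rgs14 and Rgs19), with a median of 2.53. At 10 CPM or more in LN 8 of 14 rose and 5 fell. The 5 falls became 2 with pan-T scaling and 3 without LN library 1 or tumor library 1. With single libraries left out, Dusp6 passed only without LN library 3 (adjusted p = 0.0586 to 0.113 without any other). Dusp6 also did not pass with RLE size factors, the replicate block or pan-T scaling (adjusted p = 0.0581, 0.05025 and 0.296). Rgs3 did not pass without LN library 1 or 3 or tumor library 1 (adjusted p = 0.0637 to 0.0761), nor with the replicate block (0.051) or pan-T scaling (0.173). Dusp4 (chr8:34807297-34819894), a nuclear phosphatase of ERK, was at 50.2, 51.4 and 49.3 CPM in LN and at 620.2, 656 and 624 CPM in tumor (12.6-fold, adjusted p = 9.61e-09). Dusp10 rose from 60.8 ± 6.75 to 398 ± 7.18 CPM and Dusp14 from 13.1 ± 2.65 to 131 ± 5.5 CPM. The tumor libraries differed from each other by under 10% of their mean for these 3 genes.

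Of 15 genes of the interleukin 2 path and its feedback, 8 rose and 3 fell (Bcl2, Jak1 and Pim2). Jak1 did not pass without LN library 1 or 2 or tumor library 1 or 3 (adjusted p = 0.0648 to 0.0803), nor with pan-T scaling (0.207). Cish, an inhibitor that STAT5 induces, was at 142, 177 and 127 CPM in LN and at 646, 583 and 674 CPM in tumor (4.26-fold, adjusted p = 1.16e-05), and the kinase gene Pim1 rose from 12.2 ± 1.7 to 77.8 ± 26.5 CPM. Interferon gamma and Th1-like genes rose in 16 of 23 (12 of 17 at 10 CPM or more in LN), with a median of 1.08. Ifng itself was at 5.28, 2.86 and 5.51 CPM in LN and at 56.2, 42.5 and 48 CPM in tumor (10.8-fold, adjusted p = 1.66e-05), and the chemokine gene Ccl5 rose from 14.8 ± 8.18 to 402 ± 69.4 CPM. Markers of CD8 T and NK cells summed to 41.6 to 48.2 CPM in LN and 53.2 to 73.2 CPM in tumor. Of 9 tested markers 5 rose and 1 fell (median 3.63), and 2 to 4 rose without single libraries. All 5 rises were among 7 markers under 1 CPM in LN, a class in which 40.0% of genes rose. The part of such cells in the rises of the interferon gamma list was not tested. In the Th2 and tissue repair list 10 of 12 rose (6 of 7 at 10 CPM or more in LN) and Il4 fell, with a median of 2.38. Besides Areg and Il10 these included Rora, a nuclear receptor of tissue Tregs (122 ± 5.72 to 606 ± 36.5 CPM), and Klrg1, an inhibitory receptor of effector cells (31.3 ± 4.32 to 372 ± 147 CPM). In the Th17-like list 3 of 7 rose (2 of 4 at 10 CPM or more in LN), Stat3 and Il17a among them. Il17a had 0 counts in LN and 8, 23 and 26 counts in tumor, at least 21.4-fold higher. Of 27 type I interferon genes 4 rose (Bst2, Isg20, Ly6e and Rsad2) and 2 fell (Irf9 and Stat2), with a median of 0.81. The rises were 4 of 24 at 10 CPM or more in LN, a share near the 16.3% background of that class. With single libraries left out, Stat2 passed only without LN library 3 (adjusted p = 0.064 to 0.101 without any other). Stat2 also did not pass with pan-T scaling (adjusted p = 0.0966). The count of 4 rises was 7 with RLE size factors, 8 with pan-T scaling, and 2 without LN library 3. Bst2 did not pass without that library (adjusted p = 0.0506), nor Ly6e without LN library 1 or 3 or tumor library 1 or 3 (adjusted p = 0.0559 to 0.0985).

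**Figure D3:**
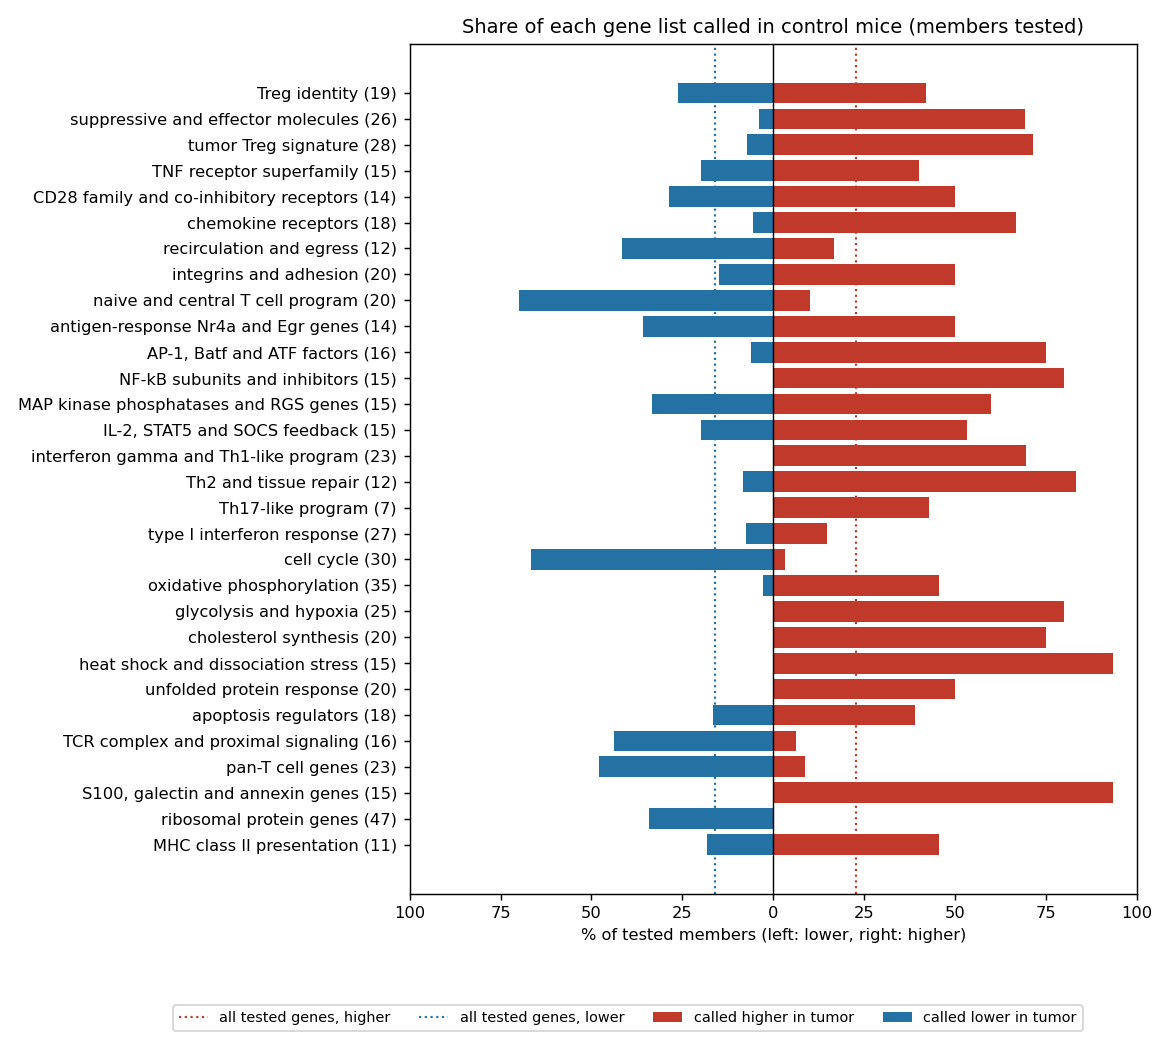
Number of tested members of each list that rose and that fell in tumor, as shares of the list, with lines at the shares over all tested genes (22.8% rose and 16.1% fell). NF-kB, AP-1, heat shock and dissociation stress, S100 and glycolysis lists lie to the side of rises, and the naive and cell cycle lists to the side of falls.

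Genes of proliferation were lower and most metabolic lists higher. Of 30 cell cycle genes 20 fell and 1 rose (14 fell with pan-T scaling), with a median of -0.60. Mki67, the proliferation marker, was at 90.7, 74.8 and 75.3 CPM in LN and at 35.3, 43.4 and 32.6 CPM in tumor (2.16-fold lower, adjusted p = 0.000664), and Ccna2 (cyclin A2) fell from 96.1 ± 9.82 to 46.6 ± 5.79 CPM. The exception was Cdk2, at 68.6 ± 5.74 CPM in LN and 165 ± 30.9 CPM in tumor, whose exons share 34 bases with the melanoma gene Pmel on the other strand. Pmel rose from 5.82 to 2102 CPM in the same libraries, the strand setting of the counting is not given in the sources used here, and reads of the pair cannot be told apart. Glycolysis and hypoxia genes rose in 20 of 25 (16 of 19 at 10 CPM or more in LN), with a median of 1.23. Aldoa (aldolase A) was at 738, 780.2 and 814 CPM in LN and at 2256, 2405 and 2662 CPM in tumor (3.14-fold, adjusted p = 1.17e-05), and the glucose transporter gene Slc2a1 rose from 99.6 ± 2.03 to 356 ± 17.8 CPM. Of 20 cholesterol synthesis genes 15 rose (13 of 17 at 10 CPM or more in LN), and Cyp51, an enzyme of this path, was at 95 ± 8.15 and 275 ± 31 CPM in LN and tumor. Of 35 oxidative phosphorylation genes 16 rose and Sdha fell (15 and 1 of 34 at 10 CPM or more in LN), with a median of 0.34. Sdha did not pass without LN library 3 (adjusted p = 0.0503) or with pan-T scaling (0.288). The 16 rises became 8 without LN library 1 and 9 without tumor library 3. Of 47 ribosomal protein genes 16 fell (all among 34 at 10 CPM or more in LN), with a median of -0.37. That count was 1 with pan-T scaling, 6 and 4 without LN library 2 or 3, and 5 without tumor library 2, and ribosomal genes have pseudogene copies that can split their reads. Melanoma cells also express the metabolic lists, and the melanoma markers were at 4928 to 9611 CPM in these tumor libraries; their part in the rises was not tested.

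Genes of heat shock and dissociation stress rose, some of them from a low level in LN. This list is not limited to heat shock genes, and it shares Atf3 with the AP-1 list. Of its 15 genes 14 rose (10 of 11 at 10 CPM or more in LN), Hsp90ab1 did not pass, and the median was 1.33. Hsp90ab1 did pass, as a rise, with DESeq2 (adjusted p = 0.0443), with only the groups compared (0.0212) and with pan-T scaling (0.0326). Hspa1a (chr17:34969190-34972156), an inducible HSP70 chaperone, was at 2.1, 5.04 and 0.969 CPM in LN and at 818, 1016 and 821 CPM in tumor (321-fold, adjusted p = 3.16e-05). Its neighbour Hspa1b (chr17:34956436-34959238) was at 5.1, 14.4 and 2.71 CPM in LN and at 1408, 1774 and 1330.0 CPM in tumor. The 2 copies are nearly identical, so reads can be split between them and the single values are uncertain. Their promoter windows, shown because the pair rose together, lie at chr17:34972157-34972406 and chr17:34959239-34959488 on the minus strand (RefSeq on GRCm38.p6, 250 bases before each start). They differ at 3 of 250 bases. Capitals mark the same NF-kB pattern and the letters GAANNTTC of a heat shock element, the latter searched after the data had been seen.
Hspa1a: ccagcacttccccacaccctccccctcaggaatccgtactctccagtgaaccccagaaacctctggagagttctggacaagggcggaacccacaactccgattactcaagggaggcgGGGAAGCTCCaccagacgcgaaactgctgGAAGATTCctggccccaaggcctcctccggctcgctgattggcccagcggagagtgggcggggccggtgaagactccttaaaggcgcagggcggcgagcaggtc
Hspa1b: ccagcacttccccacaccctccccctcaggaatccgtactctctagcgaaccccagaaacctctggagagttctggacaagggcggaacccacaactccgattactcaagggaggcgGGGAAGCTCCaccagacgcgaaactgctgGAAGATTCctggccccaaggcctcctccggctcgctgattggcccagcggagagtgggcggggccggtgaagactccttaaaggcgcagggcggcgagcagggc
The heat shock letters were in 4.98% of all windows of tested genes. Heat shock genes and immediate early genes such as Fos, Jun and Atf3 are known to be induced by tissue digestion. The labels record digestion for tumors, and tissue and dissociation cannot be told apart in these rises. The same holds for the rises of the Nr4a, AP-1, NF-kB, phosphatase and RGS genes above.

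Stress and survival genes moved in part. Of 20 unfolded protein response genes 10 rose (7 of 17 at 10 CPM or more in LN; median 0.39), among them Asns, the asparagine synthetase of the amino acid response (4.28 ± 0.845 to 48.2 ± 10.8 CPM), and Atf4 (81.3 ± 4.13 to 208 ± 19.5 CPM). In tumors of MHCII-deleted mice the mean of Asns was 169 CPM and that of Atf4 208 CPM. Of 18 apoptosis regulators 7 rose and 3 fell (Bcl2, Bid and Casp8). At 10 CPM or more in LN 7 of 16 rose and 3 fell, the latter a share under the background of that class. Bid did not pass without LN library 1 or 3 or tumor library 2 or 3 (adjusted p = 0.0647 to 0.0801), nor with pan-T scaling (0.166). Bcl2, which protects resting lymphocytes, fell from 151 ± 8.38 to 30.4 ± 5.83 CPM, its relative Bcl2l1 (BCL-XL) rose from 104 ± 11 to 268 ± 14.2 CPM, and Pmaip1 (NOXA, which promotes death) rose from 28.2 ± 5.04 to 298 ± 73.9 CPM. The S100, galectin and annexin list rose in 14 of 15 (13 of 14 at 10 CPM or more in LN; median 1.13). Lgals1, a galectin of effector T cells, was at 551 ± 84.4 CPM in LN and 1424 ± 177 CPM in tumor. By the test of the difference, 4 genes of this list had a larger and 3 a smaller log2 tissue effect in control than in MHCII-deleted mice. Tumors of the latter held more melanoma RNA, and the part of such RNA in the rises of this list and of Asns was not tested. By edgeR 0 members of the NF-kB, interferon gamma, glycolysis, cholesterol, heat shock, unfolded protein and S100 lists fell; at an unadjusted p under 0.05 there was 1 such member in glycolysis and 0 in the others, and by DESeq2 there were 0 in all of them. Of the ribosomal genes 0 rose by edgeR, 1 did at an unadjusted p under 0.05 and 1 by DESeq2.

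Several genes of the T cell receptor and of T cells in general fell. Of 16 receptor complex and proximal signaling genes 7 fell and Ptpn22 rose, with a median of -0.21 (6 fell and 3 rose with pan-T scaling). Lck, the first kinase of the receptor, fell from 2386 ± 32.4 to 1738 ± 84 CPM, and Prkcq from 584 ± 51.7 to 264 ± 43 CPM. Of 23 pan-T cell genes 11 fell and 2 rose (Cd2 and Cd6, the latter not without LN library 3, adjusted p = 0.0549), and their sum was 25317 to 25957 CPM in LN and 22089 to 23329 CPM in tumor. With libraries scaled to that sum, 9 of the 23 fell and 5 rose, a scaling that centres this list by its construction. Of 11 MHC class II presentation genes 5 rose and 2 fell (1 and 2 of 5 at 10 CPM or more in LN). H2-Ab1, a chain of the presenting molecule, was at 6.41, 7.01 and 13.8 CPM in LN and at 84.3, 32.6 and 61.5 CPM in tumor (adjusted p = 0.00156), and was highest in tumor library 1. Myeloid markers, which mark cells rich in MHC class II, summed to 43.6 to 51.4 CPM in LN and to 132, 128 and 233 CPM in tumor. Apoe alone made up that difference: without it the other 13 tested markers summed to 30.2, 32.9 and 41.2 CPM in LN and to 33.8, 25.4 and 29.3 CPM in tumor. H2-Ob and H2-Oa, which together inhibit peptide loading, fell from 71 ± 10.8 to 21.8 ± 3.83 CPM and from 28.8 ± 1.32 to 14.8 ± 3.13 CPM.

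Genes at 1 to under 10 CPM in LN with the largest rises included genes of melanoma, stroma and heat shock. Rule-named members were Dct, Gpnmb and Pmel, which are melanocyte genes, together with Col1a1, Mt1, Vegfc and the 2 HSP70 genes. Dct was at 1.09, 0.701 and 2.74 CPM in LN and at 932, 1337 and 2181 CPM in tumor, and Gpnmb at 7.2, 6.99 and 7.92 CPM and at 1167, 1268 and 2194 CPM. Vegfc, a growth factor for lymphatic vessels, was at 2.06, 1.65 and 3.01 CPM in LN and at 246, 235 and 495 CPM in tumor. In all 3 genes tumor library 3 was the highest, as it was for the sum of the melanoma markers.

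Genes near zero in LN that reached the highest levels in tumor were melanocyte and collagen genes. Tyrp1 (chr4:80834123-80851719), a pigment enzyme, was at 0.425, 0.89 and 1.57 CPM in LN and at 661, 855 and 1019 CPM in tumor. Tyr, tyrosinase, had 0, 0 and 1 counts in LN and 1062, 1881 and 2043 counts in tumor. All 15 melanoma markers passed, and tumor library 1 was the lowest in Tyrp1 and Tyr. Col1a1, of the class from 1 to under 10 CPM in LN, was at 1.27, 1.16 and 4.08 CPM in LN and at 84.6, 1434 and 905 CPM in tumor, and Col3a1 at 0.121, 0.459 and 0.434 CPM and at 238, 1584 and 996 CPM. The 33 tested collagen genes summed to 660, 5294 and 3085 CPM in the tumor libraries, so tumor library 2 was the highest in collagen while library 3 was the highest in melanoma genes. Of 17 stromal and endothelial markers 13 rose and Pecam1 fell. Of 7 lymphatic markers Flt4, Lyve1 and Pdpn rose (5 of 7 with pan-T scaling), Lyve1 not without LN library 1 (adjusted p = 0.0561), and the list summed to 28.5, 13.6 and 16.7 CPM in tumor. Prox1, the gene that drives Cre in the other genotype, did not pass (1.21 ± 0.734 CPM in LN and 4.23 ± 1.07 CPM in tumor, adjusted p = 0.0656), but did with DESeq2 (0.0293), with only the groups compared (0.0431) and with pan-T scaling (0.0461). Of 14 myeloid markers Apoe and Cd14 rose. All 5 erythroid markers rose (summed 0.152 to 1.05 CPM in LN and 30.3 to 91.9 CPM in tumor), with globin genes that have near-identical copies.

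**Figure D4:**
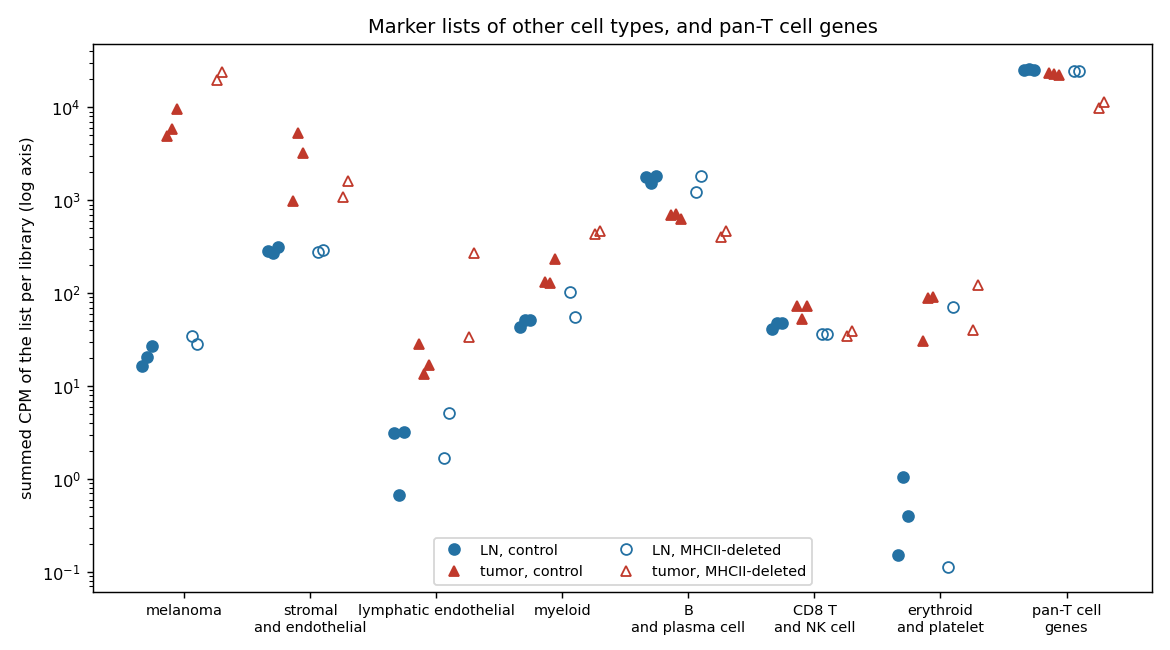
Summed level of each marker list in every library, in CPM on a log axis, for LN and tumor of control and MHCII-deleted mice. Melanoma markers separate the tumor libraries (4928 to 9611 CPM in control mice) from LN (16.6 to 26.8 CPM), whereas pan-T cell genes of control mice lie at similar heights in both tissues.

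Some genes of Treg programs also lay under 1 CPM in LN. Among the program lists 13 such genes rose: Atf3, Ccl3, Chac1, Gzma, Hspb1, Il17a, Il5, Itga1, Layn, Ltbr, Mt2, Pparg and Vegfa. The tumor libraries of MHCII-deleted mice held more melanoma RNA (19629 and 23798 CPM for the marker sum) and less pan-T cell RNA (9872 and 11344 CPM), and gave a second reading of these genes. Vegfa, the growth factor for blood vessels, was at 39.5, 39.5 and 47.6 CPM in tumors of control mice and at 207 and 126 CPM in tumors of MHCII-deleted mice. Ccl3, a chemokine of activated T cells, was at 28.1, 28.3 and 25.2 CPM against 20.9 and 16.9 CPM, and Pparg, a factor of tissue Tregs, at 3.88, 7.6 and 5.08 CPM against 3.23 and 4 CPM. Of the 13 genes, 5 were higher in both MHCII-deleted tumors than in all control tumors (Chac1, Layn, Ltbr, Mt2 and Vegfa), 4 were lower (Ccl3, Gzma, Il17a and Il5) and 4 overlapped. Narrow gaps at low levels placed Il5 (0.641 CPM in the lowest control tumor, 0.639 CPM in the highest MHCII-deleted tumor) and Il17a (0.244 and 0.172 CPM). Layn also had a narrow gap, with 0.958 CPM in the highest control tumor and 1.09 CPM in the lowest MHCII-deleted tumor. Of all 1309 genes that rose from under 1 CPM, 61.3% were higher in both of these tumors and 6.34% lower, against 29.6% and 24.0% of all tested genes. Of the 1342 that rose from 10 CPM or more, 26.3% were higher and 46.0% lower. The control tumors took part in choosing both of these sets of rises, which favours lower values in the MHCII-deleted tumors. Of the 15 melanoma markers 14 were higher, and of the 23 pan-T cell genes all 23 were lower. Genotype, melanoma RNA and T cell RNA differ together between these libraries and cannot be told apart.

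The tissue effect in MHCII-deleted mice shares no library with that of control mice. There 3383 genes (24.3%) rose and 2792 (20.1%) fell. Of the 1342 genes at 10 CPM or more in LN that rose in control mice, 748 (55.7%) also rose in MHCII-deleted mice and 91 fell. Of the 2032 that fell, 1312 (64.6%) also fell and 21 rose. Of the 1309 that rose from under 1 CPM, 1102 (84.2%) also rose. The difference of the tissue effects, tested itself, passed for 915 genes with a larger log2 value in control mice (6.57%) and for 576 with a smaller one (4.14%). Among the 1342 rises from 10 CPM or more, 303 were larger in control mice and 147 smaller, and the difference did not pass for 892. These 1342 genes were chosen by the same control libraries, which favours larger values in control mice. The number of differences depends on the libraries: 1491 in all became 884, 973 and 846 without LN library 1, 2 or 3 of control mice, 735 and 527 without LN library 1 or 2 of MHCII-deleted mice, 796 without their first tumor library and 2281 without their second.

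Named genes fell on both sides. The log2 tissue effect of Foxp3 was 0.10 in control and -0.84 in MHCII-deleted mice (difference 0.94, adjusted p = 0.00905), and that of Il2ra was 0.65 and -0.69 (difference 1.34, adjusted p = 0.00812). Tnfaip3 rose in both, by 4.63 and 3.39 (difference 1.24, adjusted p = 0.00581), and so did Ccr8, by 2.58 and 1.401 (difference 1.18, adjusted p = 0.0099). Cish rose by 2.09 in control mice, with a value of 0.40 in MHCII-deleted mice (difference 1.69, adjusted p = 0.0058). For Il10 (3.13 and 3.09), Tcf7 (-2.53 and -2.59) and Areg (6.42 and 5.63) the difference did not pass. Aldoa rose less in control mice (1.65 against 2.82), as did Cdk2 (1.27 against 3.23). Of the 23 pan-T cell genes, the difference passed for 22, all with a higher log2 value in control mice, where the list fell less (median -0.23 against -1.36). These genes moved with the genes of the first kind, and the melanoma sum with those of the second. With scaling to pan-T cell genes 6065 differences passed in place of 1491. Of these, 23 had a larger and 6042 a smaller log2 value in control mice, in place of 915 and 576. With DESeq2 1188 were larger and 1216 smaller, and with RLE size factors 771 and 712, so that both the sign and the number of such differences rest on the scaling.

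**Figure D5:**
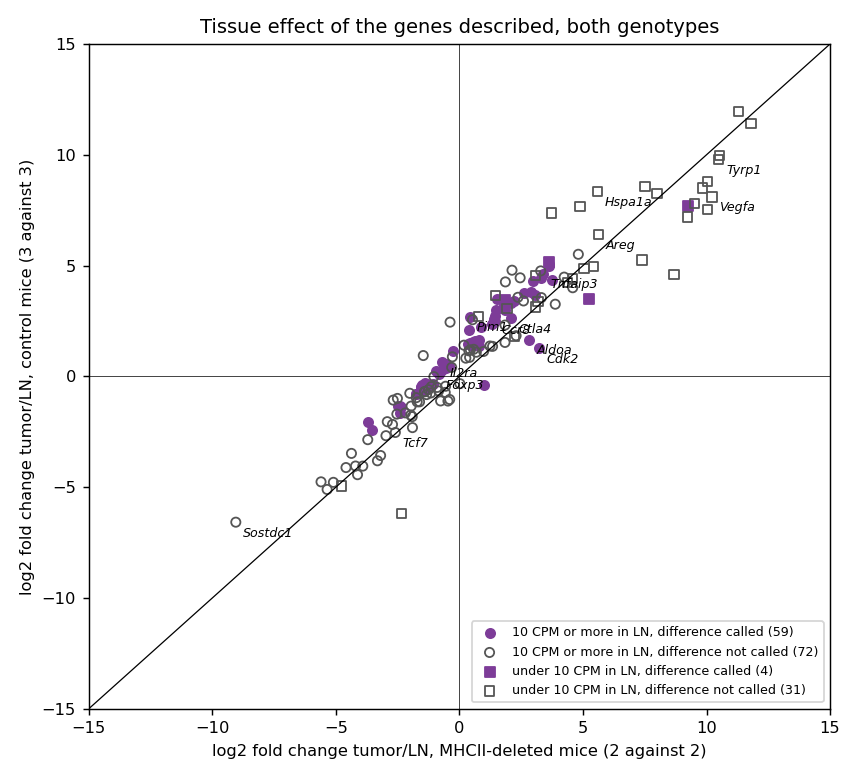
Tissue effect of the genes described, as the log2 fold change of tumor over LN, in MHCII-deleted mice (x axis) and control mice (y axis), with filled symbols where the difference passed the test and the diagonal of equal effects; genes at 0 in every library of a group are left out. Foxp3, Il2ra, Tnfaip3 and Pim1 lie above the diagonal and Cdk2 and Aldoa below it.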

How the data were processed

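Libraries were made by the SMARTer Ultra Low and Nextera XT kits from 1 ng of RNA and sequenced as single reads of 50 bases, per the labels' protocols. The submitters' processing notes name GRCm38 as build and, without roles, featureCounts 1.4.6, STAR 2.4 and CASAVA 1.8.2. The table the authors deposited holds raw, unnormalized counts for each Ensembl gene. The annotation and the strand setting of the counting are not given in the sources used here.

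All 21556 identifiers were matched to GENCODE M21 for symbols, positions and exons. Genes were filtered with filterByExpr (minimum count 10, 4 groups) and scaled by TMM. A robust quasi-likelihood model in edgeR 4.0.16 (R 4.3.3) was fitted to the counts of all 10 libraries as 4 group means, since groups of 2 and 3 hold little information on their spread. Genes with a Benjamini-Hochberg adjusted p under 0.05 over all tested genes were called. The script was tested on simulated data. Standard errors were derived from the log2 fold change and its F statistic. Levels are TMM-scaled CPM with the SD over libraries. The difference of the tissue effects was tested as an interaction in the same model. For principal components a prior count of 2 was used. Promoter windows came from RefSeq and gave 10821 of 13920 tested genes a window.

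Members, gene lists and the naming rule were chosen with earlier results of these data known. The rule takes the 12 largest rises and falls without overlap at 10 CPM or more in LN, 8 genes with the highest tumor level among those under 1 CPM in LN, the 8 largest rises at 1 to under 10 CPM in LN with at least 30 CPM in tumor, the called members with the 4 lowest p-values of each list, and 17 genes in any case. It named 165 genes, not all of which are described, and single members of some lists are not reported here. Of the 173 genes the text describes, 17 share exonic bases with another gene. Alternatives were RLE size factors, DESeq2 1.42.0, no low-count filter, only the groups compared, a replicate block, scaling to the summed pan-T cell genes, other limits for the LN classes and the omission of each library.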

Additional observations from a re-analysis of the deposited data

Results flagged for a closer look

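The tissue effect differed between control and MHCII-deleted mice, by the test of the difference itself, for 915 genes with a larger and 576 genes with a smaller log2 value in control mice (6.57% and 4.14% of tested genes). Values below are the difference on the log2 scale, with positive values where the effect of control mice was the higher one. Among the genes described, those of signaling feedback and antigen response were Pim1 (2.26), Cish (1.69), Egr3 (1.62), Nr4a2 (1.53), Rgs2 (1.44), Nr4a3 (1.398), Sik1 (1.35), Dusp10 (1.29), Dusp14 (1.22), Nr4a1 (1.17), Rgs14 (1.11), Tox (1.07), Rgs10 (0.97), Ptpn22 (0.89), Jak1 (0.72), Bhlhe40 (0.61) and Dusp4 (0.59). Those of AP-1 and NF-kB were Junb (1.51), Nfkbia (1.36), Tnfaip3 (1.24), Nfkbiz (1.15) and Traf1 (1.10).

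Surface receptors with such a difference were Cxcr4 (1.96), Cd69 (1.398), Il2ra (1.34), Ccr8 (1.18), Izumo1r (1.14), Il6ra (1.13), Cd2 (1.11), Itgal (1.07), Icam1 (1.05), Tnfrsf9 (1.04), Lrrc32 (1.03), Tnfrsf18 (1.00), Cd4 (1.00), Pdcd1 (1.00), Nrp1 (0.96), Tnfrsf13b (0.95), Cd96 (0.95), Cd6 (0.92), Tnfrsf4 (0.87), Tigit (0.85), Cd27 (0.78), Nt5e (0.76) and Ctla4 (0.54). The others were Ifng (1.58), Tent5a (1.33), Pmaip1 (1.19), Ly6e (1.18), Nkg7 (1.14), Lck (1.10), Ncoa7 (1.06), Ikzf2 (1.00), Acp5 (0.95), Foxp3 (0.94), Fgl2 (0.92), Lef1 (0.76) and Bcl2l1 (0.59). Negative differences were those of Cdk2 (-1.96), Asns (-1.75), Gpnmb (-1.53), Dusp6 (-1.39) and Aldoa (-1.17). In the same libraries the pan-T cell genes summed to 22089 to 23329 CPM in tumors of control mice and to 9872 and 11344 CPM in those of MHCII-deleted mice. With scaling to that sum, 23 of all tested genes had a larger log2 value in control mice in place of 915, and 6042 a smaller one in place of 576. The positive differences listed here therefore rest on the scaling to all genes, and the part of pan-T cell RNA in single differences was not tested.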

How the results depend on the processing

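Counts over all tested genes and over the LN classes stayed within 1.5 times their value except in these cases; counts of single lists that moved further stand with the lists. With scaling to pan-T cell genes, 1242 genes fell in place of 2237, 1108 in place of 2032 at 10 CPM or more in LN, and the tissue effect of MHCII-deleted mice held 9382 in place of 6175 genes. The difference of the tissue effects held 6065 genes with that scaling, 2404 with DESeq2 and 527 to 2281 without single libraries, in place of 1491; the cause was not tested. The main model held no replicate block, since whether same-numbered libraries share mice is not given in the sources used here. The block was run as an alternative. Same-numbered LN and tumor libraries correlated only at 0.020 to 0.046 in their deviations (-0.034 to -0.003 for different numbers), but every library correlated best with its own number. Y-linked sums were also high in same-numbered libraries, in library 2 of both tissues of control mice and in library 1 of MHCII-deleted mice (205.7 CPM in LN and 75.6 CPM in tumor). These are hints from the data. With the block 2876 genes rose and 1999 fell, 1288 and 1858 at 10 CPM or more in LN, 1102 rose from under 1 CPM, and 5736 and 1177 passed for MHCII-deleted mice and for the difference. Of 169 genes described, 161 passed, 139 of them under every alternative run, and none of the 161 turned its direction. Cd8b1, at -0.01 without a call, was at 0.0272 with RLE size factors, 0.0270 with DESeq2, 0.00838 with the replicate block, 0.16 with pan-T scaling and -0.16 to 0.11 without single libraries. Genes at 0 in all libraries of a group (Slc16a5, Il17a, Il5 and Layn) were left out there, since their fitted fold is no bound. Besides those named with their libraries, calls of Jund, Rgs14 and Tox were lost under some alternative, the last 2 with pan-T scaling only. That scaling lost 13 calls, all of falls: these 2 and Bid, Dusp6, Itgal, Itgb1, Jak1, Nt5e, Pax5, Rgs3, Sdha, Stat2 and Tox2. RLE size factors lost Dusp6 and Nt5e, and the replicate block lost Dusp6, Ebf1, Pax5 and Rgs3. Without the low-count filter Jund, Pax5 and Tox2 were lost. Depth limits genes near 0.1 CPM, where 3 counts are the floor, and 3 libraries a group limit small changes.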

Other observations

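Some genes differed more among the 3 tumor libraries of control mice than most, with tumor library 1 apart; they were picked after their values had been seen. Jund, an AP-1 subunit, was at 379, 124 and 128 CPM in tumor and at 31 to 46.8 CPM in LN; its call was lost without any 1 of the LN libraries or tumor library 1 (adjusted p = 0.0608 to 0.0819). Klf3, a repressor of the Klf family, was at 106, 37.5 and 44.7 CPM in tumor and at 104 to 110.4 CPM in LN, so that only tumor libraries 2 and 3 lay under LN. Il12rb2, a chain of the interleukin 12 receptor, was at 58.5, 19.3 and 29.1 CPM in tumor and at 1.06 to 1.3 CPM in LN; its exons share 1519 bases with Serbp1 on the other strand. Tumor library 1 also had the lowest sums of melanoma markers (4928 CPM) and of collagens (660 CPM), and whether these go together was not tested.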
